A study of Schmidtea mediterranea with 24 samples.

Results

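In intact planarians (*Schmidtea mediterranea*) and in tail fragments 6 h and 48 h after amputation, 10 genes were lower by a set margin in mmp-1 positive (mmp-1+) than in mmp-1 negative (mmp-1-) cells. They were chosen from a table of 36035 gene identifiers, of which 10978 had a mean of at least 10 CPM (counts scaled to a common library total) in 1 of the 6 groups. For each gene, d was the log2 of the mean CPM plus 1 in mmp-1+ cells minus the same in mmp-1- cells, and a member needed a d of -0.8 or less at all 3 times. A limit of 150 genes was set and was not reached. The sort difference chose these genes, so its values below are a description and carry no test. The identifiers come without gene names, so no function is given for any of them.

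Planarians rebuild missing body parts from neoblasts, dividing stem cells that lie in the tissue around the gut and nervous system. Matrix metalloproteinases, the enzyme family after which mmp-1 is named, cut proteins of the extracellular matrix and are known for remodelling tissue. Signals and matrix from neighbouring differentiated cells form the environment in which neoblasts respond to a wound.

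The study sorted cells and also mapped RNA in tissue sections of wild-type animals. For the sorted cells, worms were starved for 11 days, and the 3 conditions were intact animals and tail fragments collected 6 h or 48 h after cutting. Each of the 3 biological replicates per condition pooled 100 worms, whose cells were dissociated, fixed, stained for mmp-1 RNA by hybridization chain reaction (fluorescent probes that bind 1 chosen RNA inside fixed cells) and separated by flow cytometry. Libraries were made from 1000 cells of each population with 10 and then 12 PCR cycles, so each value is a pool over worms and over every cell type in its gate. The mmp-1- cells are thus a mixture defined by what they lack, and intact animals hold head and trunk tissue that tail fragments do not.

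Depth was similar across the sorted libraries, at 52969393 to 66114382 gene counts in the mmp-1+ population and 55497823 to 63524266 in the mmp-1- population. Genes of the opposite rule, higher in mmp-1+ cells at every time by the same margin, numbered 179, and the 150 with the widest margin took 7.56% to 17.2% of all counts in the mmp-1+ population but 0.317% to 1.24% in the mmp-1- population. Since they were picked on the same sort, this does not test the labels, and the level of mmp-1 itself was not analysed here. Replicate 2 of both intact populations stood apart in that share, at 1.03% against 0.388% and 0.377% in the other intact mmp-1- libraries, and at 7.56% against 14.6% and 15.4% in the other intact mmp-1+ libraries.

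Among the 10 genes, d ran from -1.44 to -0.80 in intact worms (median -0.89), from -1.24 to -0.97 at 6 h (median -1.06) and from -1.07 to -0.85 at 48 h (median -0.92). Most genes in the table leaned the same way, with a median d over the 10978 genes of -0.25, -0.37 and -0.31 at the 3 times and 8957 of them below 0 throughout. The mmp-1+ level was 36.8% to 57.3% of the mmp-1- level in these 10 genes, so none was close to absent from mmp-1+ cells. The difference was widest at 6 h in 8 of the 10 and in intact worms in SMED30006263 and SMED30005046. The median d over all genes was also lowest at 6 h, so nothing is read from this count. In such pools, fewer cells of a type and less RNA per cell cannot be told apart.

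SMED30001376 passed the rule with the widest margin. Its levels in intact mmp-1- cells were 313, 170.0 and 269 CPM, and in intact mmp-1+ cells 127, 128 and 111 CPM. Replicate 2 was the low mmp-1- library, and the populations did not overlap. At 6 h it had 280.2, 192 and 200.5 CPM in mmp-1- against 113, 87.7 and 112 CPM in mmp-1+ cells. At 48 h it had 317, 259 and 178 CPM in mmp-1- against 149.8, 111 and 95.4 CPM in mmp-1+ cells. The gap was nearly constant, with d of -1.03, -1.10 and -1.07.

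SMED30006263 had the lowest single d. In intact worms its mmp-1- libraries held 1976, 1021 and 2617 CPM and its mmp-1+ libraries 629, 703 and 733 CPM. At 6 h the values were 1476, 2161 and 1336 CPM in mmp-1- and 581, 814 and 709 CPM in mmp-1+ cells. At 48 h they were 1202, 1885 and 1299 CPM in mmp-1- and 718, 661 and 776 CPM in mmp-1+ cells. The mmp-1+ level hardly moved, the mmp-1- libraries spread widely, and d narrowed from -1.44 to -1.24 and -1.02.

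SMED30005046 was the one member whose level differed sharply between intact worms and tail fragments in both populations. Intact mmp-1- libraries held 65.1, 110.1 and 60.0 CPM, and intact mmp-1+ libraries 33.4, 37.3 and 33.8 CPM. At 6 h these were 16.5, 13.9 and 15.5 CPM in mmp-1- and 7.22, 7.40 and 7.12 CPM in mmp-1+ cells. At 48 h they were 14.3, 27.7 and 14.5 CPM in mmp-1- and 8.76, 9.16 and 11.0 CPM in mmp-1+ cells. The populations kept their order at each level, with d of -1.15, -0.99 and -0.90, and replicate 2 was the high mmp-1- library both in intact worms and at 48 h.

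SMED30011701 was the member with the fewest counts in sorted cells. Its intact values were 17.6, 14.9 and 20.9 CPM in mmp-1- and 7.36, 10.4 and 9.96 CPM in mmp-1+ cells. At 6 h they were 18.3, 17.8 and 13.2 CPM in mmp-1- and 7.06, 7.97 and 7.08 CPM in mmp-1+ cells. At 48 h they were 11.1, 14.1 and 8.49 CPM in mmp-1- and 5.67, 5.11 and 5.54 CPM in mmp-1+ cells. No library of one population reached into the other, and d was -0.87, -1.06 and -0.93.

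The other 6 members, SMED30015575, SMED30017516, SMED30017945, SMED30009776, SMED30031625 and SMED30035878, had d between -1.10 and -0.80. SMED30035878, with d of -0.80, -0.99 and -0.85, lay just inside the limit, and with it SMED30031625 and SMED30009776, whose largest d were -0.82 and -0.84. In intact worms SMED30035878 had 995, 635 and 890.3 CPM in mmp-1- and 487, 527 and 430.4 CPM in mmp-1+ cells, again with replicate 2 as the low mmp-1- library. The genes just outside were SMED30013320, SMED30006180 and SMED30019531, each with a largest d of -0.80 to 2 decimals, so the limit falls within a run of similar genes.

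Every mmp-1+ library lay below every mmp-1- library for all 10 members at each time. By the same count over the 10978 genes, 43.3%, 69.2% and 66.4% did so at the 3 times; nothing is read from the members' count because the rule used this contrast. How many genes pass the rule depended on single libraries. Leaving out intact mmp-1- replicate 1 gave 4 genes and replicate 2 gave 16. Leaving out intact mmp-1+ replicate 2 gave 18 and replicate 3 gave 6, and leaving out 48 h mmp-1- replicate 1 gave 5. SMED30001376 passed whichever of the 18 libraries was left out, whereas SMED30035878 passed in 12 of the 18 cases.

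The size of the difference was also tied to scaling by column totals. TMM, the trimmed mean scaling of edgeR, brought the median d of all genes to 0.04, 0.00 and 0.00, and then no gene reached -0.8 at all 3 times. The members' largest d became -0.71 to -0.49 under TMM. By this scaling SMED30001376, SMED30017516 and SMED30009776 were widest apart at 48 h, not at 6 h. All 10 stayed below 0 at every time. Of these, 9 were the only genes with a TMM d of -0.5 or less throughout, while the remaining one ranked 11. The rule used this contrast in the same libraries, so these TMM values describe the set and are no separate support for it. In the edgeR fit with TMM, SMED30001376 had log2 differences of -0.72, -0.71 and -0.76 between mmp-1+ and mmp-1- cells at the 3 times, against medians over all tested genes of -0.04, -0.08 and -0.06.

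**Figure D1:**
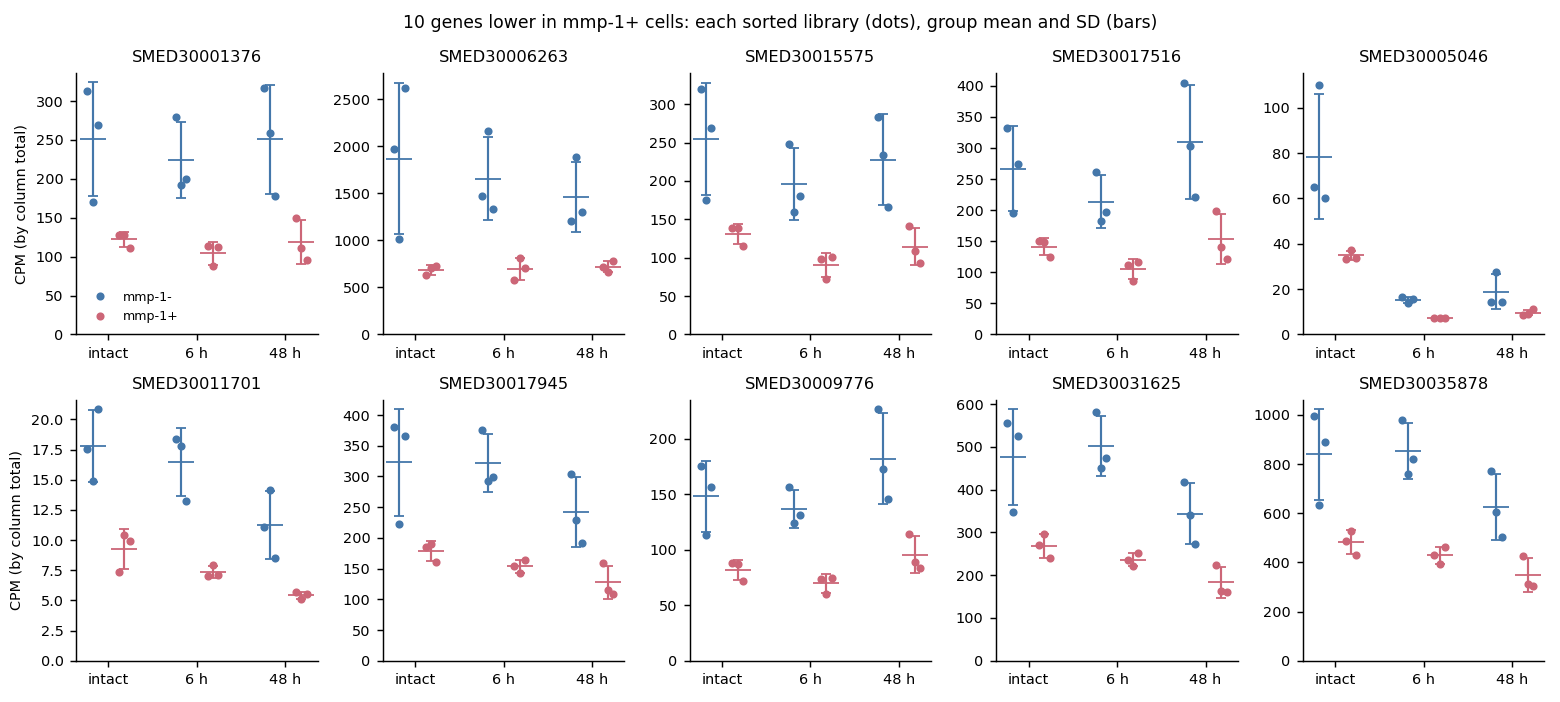
Levels of the 10 genes in the 18 sorted libraries, in CPM by column total on linear axes that start at 0; dots are libraries, horizontal bars group means and vertical bars SD (n = 3). Within each time the mmp-1+ dots lie below the mmp-1- dots in every panel, and SMED30005046 is lower in tail fragments than in intact worms in both populations.

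The change over time within one sorted population did not enter the rule, so it could be tested. edgeR compared the times over 31435 genes, with an adjusted p (Benjamini-Hochberg) under 0.05 as the limit, and called changes in 3 of the 10 members, all of them decreases. At 6 h against intact, 1 member was called in mmp-1- cells, where 9.56% of all tested genes were called in either direction, and 1 in mmp-1+ cells, where 6.52% were. At 48 h against intact, 2 members were called in the mmp-1- population (17.6% of all genes) and 3 in the mmp-1+ population (17.7%). At 48 h against 6 h, 2 were called in the mmp-1- population (9.75%) and 1 in the mmp-1+ population (9.63%). With 10 members these shares are close to the background and are no result about the set. Both comparisons with intact worms use the same intact libraries and are not independent of each other.

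SMED30005046 was about 4-fold to 5-fold lower in the 6 h tail fragments than in intact worms. On the TMM scale of the test its intact mmp-1- libraries held 56.1, 102 and 53.3 CPM and those of 6 h 15.6, 12.2 and 14.2 CPM. Its intact mmp-1+ libraries held 37.5, 37.5 and 40.3 CPM and those of 6 h 9.20, 8.38 and 8.32 CPM. Intact and 6 h libraries were far apart in both populations. In mmp-1- cells the log2 fold change was -2.33 with an SE of 0.23 (adjusted p 1.27e-06, edgeR), and in mmp-1+ cells it was -2.15 with an SE of 0.24 (adjusted p 5.71e-06, edgeR). At 48 h it was still low, at 12.5, 24.2 and 12.3 CPM in mmp-1- and 9.45, 10.4 and 11.4 CPM in mmp-1+ cells, with log2 fold changes against intact of -2.10 and -1.88 (SE 0.23 for each, edgeR adjusted p 2.51e-06 and 1.02e-05). Each of these 4 calls held under all 13 alternatives tried for it. Whole worms were compared with tail fragments here, so time after amputation and the body region sampled cannot be told apart.

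SMED30011701 was lower at 48 h in both populations. Its TMM-scaled mmp-1- values were 15.2, 13.7 and 18.5 CPM for the intact libraries, 17.3, 15.6 and 12.1 CPM for those of 6 h, and 9.74, 12.3 and 7.22 CPM for those of 48 h. The 48 h libraries lay below the intact ones, and 1 of them, replicate 2, came above the lowest 6 h library. The mmp-1- log2 fold change at 48 h against intact was -0.70 with an SE of 0.17 (adjusted p 0.00589, edgeR). The mmp-1+ values were 8.25, 10.5 and 11.9 CPM for the intact libraries, 9.00, 9.02 and 8.28 CPM for those of 6 h, and 6.12, 5.81 and 5.75 CPM for those of 48 h, with no overlap of 48 h with either other time. The mmp-1+ log2 fold change at 48 h against intact was -0.79 with an SE of 0.17 (adjusted p 0.00304, edgeR), and both calls against intact held under all 13 alternatives.

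Against 6 h, SMED30011701 had log2 fold changes of -0.62 (mmp-1-, SE 0.17, adjusted p 0.0221) and -0.57 (mmp-1+, SE 0.18, adjusted p 0.0442) in the edgeR fit. These calls were less firm. The first was lost under 5 of 13 alternatives, among them the removal of mmp-1- replicates 1 or 2 at 6 h or 1 or 3 at 48 h (adjusted p 0.00546 to 0.119 over alternatives). The second was lost under 9, including the removal of any 1 of its 6 libraries (0.00477 to 0.125).

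SMED30031625 fell between 6 h and 48 h in mmp-1- cells and between intact worms and 48 h in mmp-1+ cells. Its TMM-scaled mmp-1- values were 548, 395 and 434 CPM at 6 h and 366, 297 and 233 CPM at 48 h, without overlap. Its log2 fold change of -0.62 had an SE of 0.17 (adjusted p 0.0265, edgeR). The call was lost with total counts and when replicate 1 of the 6 h or replicate 2 or 3 of the 48 h mmp-1- libraries was left out (adjusted p 0.0051 to 0.137 over alternatives). Its intact mmp-1+ libraries held 304, 298 and 286 CPM and those of 48 h 241, 186 and 167 CPM, also without overlap. That log2 fold change of -0.58 had an SE of 0.17 (adjusted p 0.0248, edgeR), and the call was lost when intact mmp-1+ replicate 1 or 2 or 48 h mmp-1+ replicate 2 or 3 was left out (adjusted p 0.00505 to 0.128). The matching changes in the other population did not pass, at -0.50 in mmp-1- cells for 48 h against intact and -0.51 in mmp-1+ cells for 48 h against 6 h (edgeR adjusted p 0.0527 and 0.0735).

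The other 7 members had no change called by edgeR in this fit. SMED30035878 and SMED30017945 came nearest, with log2 fold changes at 48 h against intact of -0.45 and -0.44 in mmp-1- and -0.49 and -0.51 in mmp-1+ cells (edgeR adjusted p 0.0768, 0.12, 0.0546 and 0.0722). DESeq2 called SMED30035878 lower at 48 h against intact in both populations (adjusted p 0.0388 for mmp-1-, 0.0284 for mmp-1+) and against 6 h for mmp-1- (0.0240). It also called SMED30017945 lower at 48 h against intact for mmp-1+ (adjusted p 0.0415). Between 6 h and 48 h SMED30017516 stood at 0.46 and 0.40, SMED30009776 at 0.34 and 0.32, and SMED30015575 at 0.14 and 0.20 in mmp-1- and mmp-1+ cells, none of them called (0.232 was the lowest adjusted p by edgeR). SMED30001376 was at 0.09 and 0.05 and SMED30006263 at -0.24 and -0.10 in the same comparison.

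**Figure D2:**
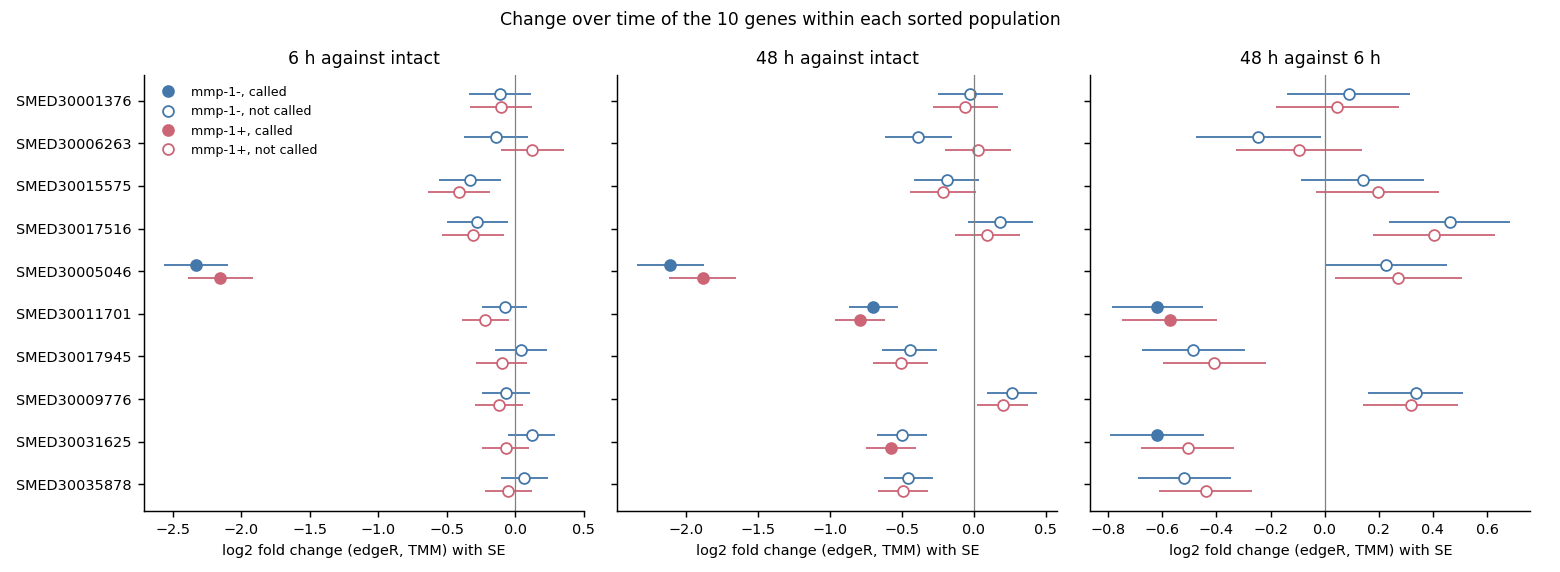
log2 fold changes between times within mmp-1- (blue) and mmp-1+ (red) cells from edgeR with TMM, with SE as horizontal bars and filled points for an adjusted p under 0.05; the 3 panels have different axis ranges. SMED30005046 lies near -2 against intact in both populations, and the panel of 48 h against 6 h holds genes on both sides of 0.

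The section data gave a view that the sort did not enter. Slide-seqV2 captures RNA of a frozen section on barcoded beads of known position and counts it by unique molecular identifiers (UMIs). Each time had a single frozen block, with 1 intact wild-type animal in the middle of 8 to 9 tail fragments, from which 2 neighbouring sections were cut. These animals measured 6 to 8 mm and were fed weekly, unlike the starved worms of the sort, and each time is 1 block, so no test between times was made. Section values below mix fragments and the intact animal. The 6 h sections had 9423 and 14431 beads over tissue, with medians of 679 and 549 UMIs. Those of 48 h had 13822 and 12697, with medians of 951 and 812 UMIs. The sections shared 3 to 5 bead barcodes with one another. Intervals are 95% Poisson intervals and cover counting error only.

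All 10 members were measured in the sections, with 363 to 26922 UMIs in tissue beads over the 4 sections and thus above the minimum of 200 UMIs that 10888 genes passed. SMED30001376 had 538 CPM (523 to 553) and 379 CPM (368 to 390.2) in the 6 h sections and 401 CPM (392 to 409.5) and 529.5 CPM (519 to 540.4) in the 48 h sections. It was found in 15.4% to 23.5% of tissue beads. SMED30006263 had 735 CPM (718 to 753) and 309 CPM (299 to 319) at 6 h and 387 CPM (378 to 396) and 349 CPM (341 to 358) at 48 h, so that adjacent 6 h sections differed far beyond counting error. SMED30005046 was sparse, with 81, 70, 118 and 94 UMIs in 0.450% to 0.716% of beads. SMED30011701 was in 0.717% to 2.21% of beads. The remaining 6 genes each held 2127 to 10027 UMIs per section in 9.72% to 24.1% of beads.

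All 10 genes had a higher level near the edge of the tissue in every section, in some cases by little. The rim was the 25% of tissue beads nearest the edge and the interior the 50% farthest from it, and the log2 ratio of their levels was above 0 in all 4 sections for 10 of 10 members, against 26.8% of all genes with enough UMIs. Its mean over sections had a median of 0.78 over the members and 0.08 over all genes. By section the members' median was 0.49 and 0.57 at 6 h and 0.98 and 0.92 at 48 h, beside 0.24, 0.16, 0.01 and 0.00 for all genes. In the first 6 h section SMED30011701 (0.08) and SMED30006263 (0.22) lay below the median of all genes. Members that share beads, as described below, are not independent of each other here. No member reached a 1.5-fold ratio in all 4 sections, where 9.42% of all genes did. Rim beads were shallower, with medians of 261, 304, 504 and 313 UMIs against 1027, 697, 1234 and 1120.5 in the interior. In beads of 300 to 1000 UMIs, a range chosen after seeing the data, the members' median was 0.69. The median over all genes in that range is not given, so the part of depth in the members' excess was not tested.

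SMED30005046 had the highest mean ratio, 1.24. Its rim and interior levels were 23.1 and 6.69 CPM, 12.1 and 4.53 CPM, 12.2 and 4.50 CPM, and 4.79 and 4.16 CPM in the 4 sections (the 6 h sections first here and below). The last section was close to even, and its rim value rests on 8 UMIs. SMED30035878 followed with a mean ratio of 0.90, at 339.7 and 241 CPM, 278 and 160.1 CPM, 245 and 118 CPM, and 279.8 and 117 CPM in rim and interior. SMED30017945, with 361 and 246 CPM, 304 and 177 CPM, 298 and 138 CPM, and 271 and 127 CPM, had a mean of 0.88. Both were more than 2-fold apart in the 48 h sections and less in the 6 h sections.

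The lowest ratios among members were those of SMED30015575 (mean 0.33), SMED30001376 (0.46) and SMED30017516 (0.47). SMED30015575 had 538 and 405 CPM, 322 and 278 CPM, 425 and 309 CPM, and 513 and 435 CPM in rim and interior. Its excess at the rim was thus modest but of one sign. By mean ratio the members stood above 72.7% to 92.7% of all genes. SMED30011701 was nearly even at 6 h, with 27.7 and 26.8 CPM and 13.9 and 12.0 CPM, and higher at the rim at 48 h, with 12.2 and 5.09 CPM and 10.8 and 3.42 CPM.

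In 10 bins of equal bead number from the edge inwards, the abundant members peaked a little below the surface and thinned out towards the centre. Of 40 profiles, 1 for each gene and section, 37 had their highest level in the outer 4 bins, as did 58.6% of the profiles of all genes with enough UMIs, and 7 in the outermost bin itself (20.9% of all). The lowest level was in the 3 deepest bins in 38 of the 40, against 33.8% of all. For genes with at least 1000 UMIs, 8 of them members with 32 profiles, these counts were 30, 4 and 32, beside 56.0%, 19.2% and 34.6% of all. The profiles use the same beads as the rim ratio and are not independent of it. SMED30017516 in the second 48 h section is an example, with 584 CPM in bin 1 at the edge, 872 CPM in bin 4 and 299 CPM in the deepest. SMED30031625 in the same section went from 276 CPM at the edge through 384 CPM in bin 4 to 70.3 CPM in the deepest. SMED30005046 had its peak in the outermost bin in both 6 h sections, at 35.6 and 22.7 CPM, on only 9 and 11 UMIs. Its peaks in the 48 h sections were in bins 2 and 5. With so few UMIs no difference between the blocks is read from these profiles.

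**Figure D3:**
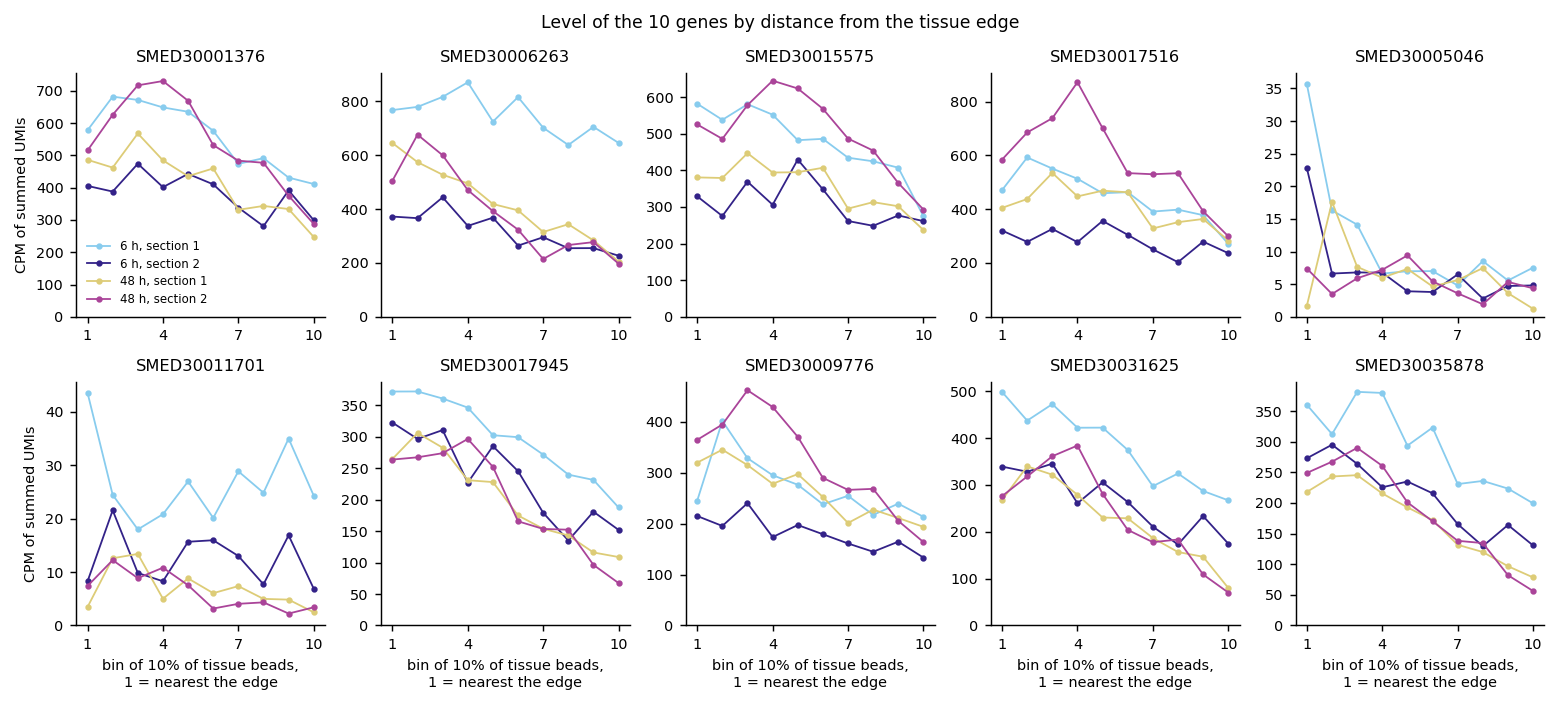
Level of each of the 10 genes (CPM of summed UMIs, linear axes from 0) in 10 equal bins of the tissue beads ordered by distance from the tissue edge, with 1 line per section. Most lines are highest in bins 1 to 4 and lowest in bins 8 to 10, and SMED30006263 and SMED30011701 lie apart in the first 6 h section.

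Levels also varied from one piece of tissue to another within a section. There were 6, 10, 12 and 12 pieces of at least 200 beads, which the files do not label as fragment or intact animal. SMED30001376 ranged from 397 to 722 CPM over the pieces of the first 6 h section and from 293 to 880.4 CPM over those of the second 48 h section. SMED30005046 was at 29.6 CPM in 1 piece of the first 6 h section with a median of 6.12 CPM, and that piece held 37.7% of its UMIs in the pieces of that section. In the second 6 h section it ranged from 0 to 26.8 CPM.

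A bead rich in mmp-1+ transcripts need not be poor in these genes. Rich beads were the 10% of tissue beads with the largest share of UMIs from the 150 genes of the opposite rule, which made up 12.3%, 19.2%, 8.28% and 9.75% of the UMIs there and 0.411% to 0.872% elsewhere, and the members' levels were computed among the other UMIs. The members' median log2 ratio between rich and other beads was 0.07 and 0.37 in the 6 h sections and -0.09 and -0.18 in the 48 h sections, beside 0.20, 0.16, 0.12 and 0.08 over all genes. Its sign thus differed between the blocks. Beside the median over all genes, however, it was higher only in the second 6 h section and lower in the first 6 h section and both 48 h sections. The median of the means over sections was 0.01 (0.13 over all genes), and -0.10 to 0.13 with 1 section left out. SMED30015575 (mean 0.25), SMED30017516 (0.23) and SMED30001376 (0.20) were higher in rich beads in all 4 sections, as were 32.9% of all genes. SMED30005046 alone was lower in all 4, as were 16.2% of all genes, with log2 ratios of -0.21, -0.51, -1.52 and -1.57. Only 3.11% of all genes had a lower mean than its -0.95, on 4 to 7 UMIs in the rich beads of a section. No member was past 1.5-fold in all 4 sections in either direction, against 2.97% of all genes higher and 2.75% lower. One bead may mix several neighbouring cells, and rich beads were deeper, with medians of 835, 679, 1248 and 1184.5 UMIs against 665.5, 538, 920.0 and 778 in other beads.

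Between the blocks, SMED30011701 was lower at 48 h, as it was in sorted cells. It had 25.8 CPM (22.6 to 29.2) and 12.1 CPM (10.2 to 14.2) in the 6 h sections and 6.75 CPM (5.65 to 8.00) and 5.64 CPM (4.58 to 6.86) in the 48 h sections, with no overlap between the times. Its mean log2 ratio of 48 h to 6 h was -1.51, lower than in all but 0.992% of genes. SMED30035878 (-0.52), SMED30031625 (-0.48) and SMED30017945 (-0.43) were also lower in all 4 pairs of a 48 h with a 6 h section. These 4 of 10 compare with 14.1% of all genes, and at 1.5-fold in every pair the count was 1 of 10, SMED30011701, beside 2.54% of all genes. The 4 genes share beads, as described below, and are not independent of each other. No member was higher in all pairs, where 52.2% of all genes were, and the members' median was -0.34 against 0.31 over all genes. It was 0.11 without the first 6 h section, so its sign rests on that section. SMED30017516 (0.47) and SMED30009776 (0.38) had the highest mean ratios, with pairs of both signs. The blocks hold different animals, so time and block cannot be told apart.

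**Figure D4:**
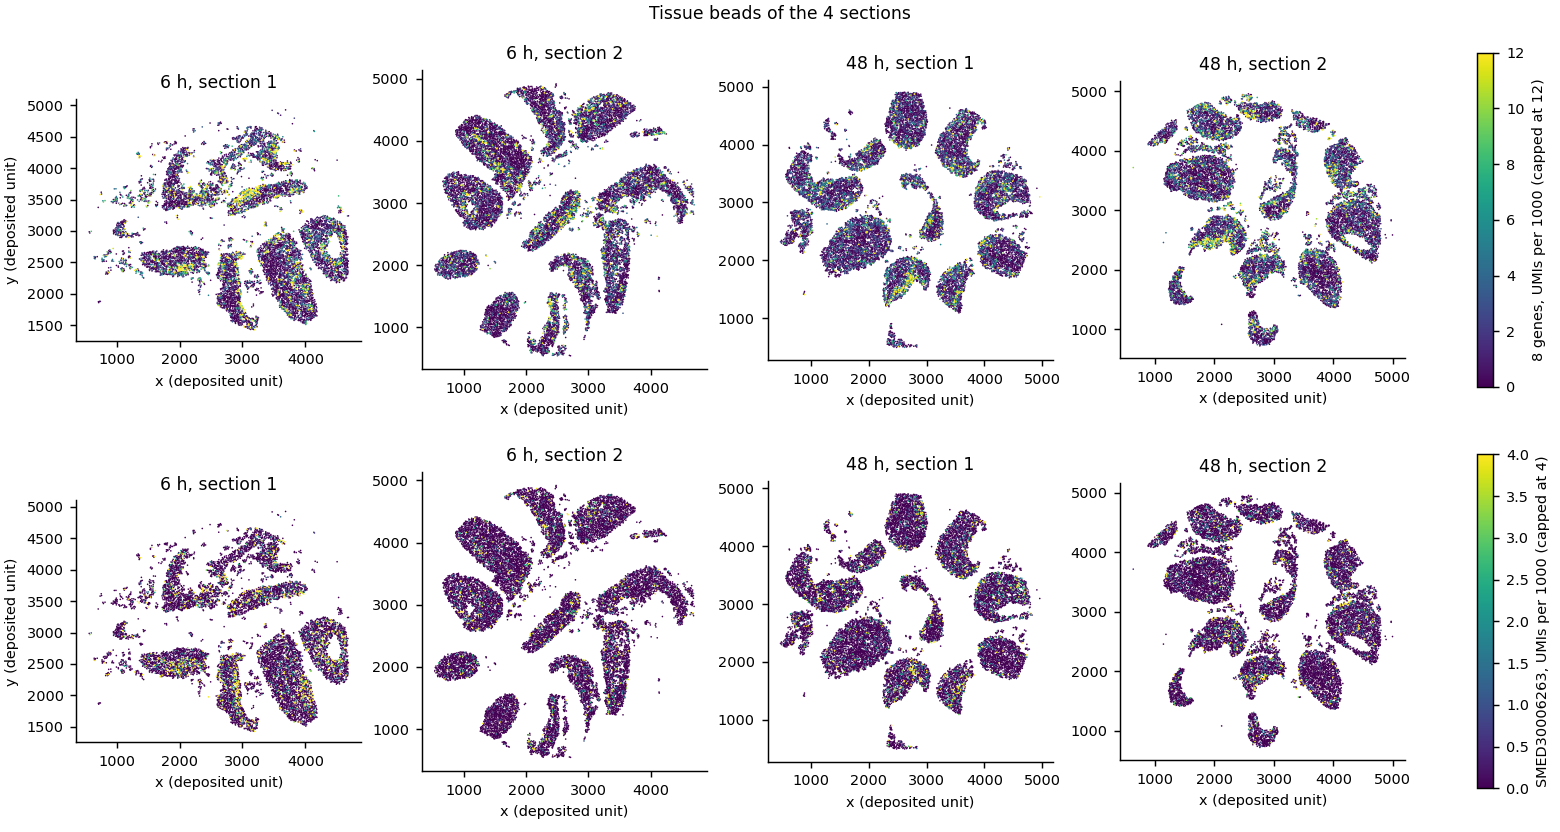
Positions of tissue beads in the 4 sections (deposited position units) coloured by UMIs per 1000 UMIs of 8 members together (top, capped at 12) and of SMED30006263 (bottom, capped at 4). The colour scale is linear, and the 8 members are uneven between and within pieces, with bright patches in some pieces and dark centres in others.

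The members split into a set that travelled together and genes for which this was not seen. In beads with at least 1 UMI of one gene, the level of another was compared with its level in the remaining beads. For 8 members, all but SMED30005046 and SMED30006263, the mean log2 ratio over the 4 sections was 1.49 to 2.23 in all 56 ordered pairs, and single sections gave 1.19 to 2.81. The 34 pairs that involve SMED30005046 or SMED30006263 had means of 0.01 to 0.89, and single sections gave -2.00 to 1.52. Both ends of that range came from pairs with SMED30005046, so the section values are loose for this sparse gene. The median over all genes in beads with one of the 8 was 0.07 to 0.26. It was 0.20 to 0.25 in beads with SMED30006263. In beads with SMED30005046, only 64 to 99 in a section, it was 0.25 to 0.50. Beads with a UMI of one of the 8 were deeper, with medians of 1198 to 2168 UMIs against 467 to 941 without. The part of depth in the ratios was not tested beyond the median over genes.

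Sorted libraries showed a similar split. Deviations of log2 CPM from the group mean over the 18 libraries had a Pearson r of 0.94 to 0.99 for every pair among 7 genes, the same 8 without SMED30011701. For SMED30011701 with these 7 it was 0.27 to 0.45, for SMED30006263 0.11 to 0.31, and for SMED30005046 -0.48 to -0.29. SMED30011701 and SMED30006263 had 0.70 with each other. These r describe 18 libraries that share scaling by column totals, and no p is given. The r of other gene pairs is not given here, so a high r is not shown to be particular to these 7. Intact mmp-1- replicate 2 had the largest share of mmp-1+ transcripts among the 3 intact mmp-1- libraries. It lay below its group mean in 9 of the 10 genes and above it in SMED30005046. The 7 genes with high r are among these 9 and are not independent of each other. How many of all genes lay below their group mean there is not given, so nothing is read from this count. The part of the mmp-1+ transcript share in these values was not tested. Without intact mmp-1- replicate 2 the members' largest d was -1.07 to -0.82.

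**Figure D5:**
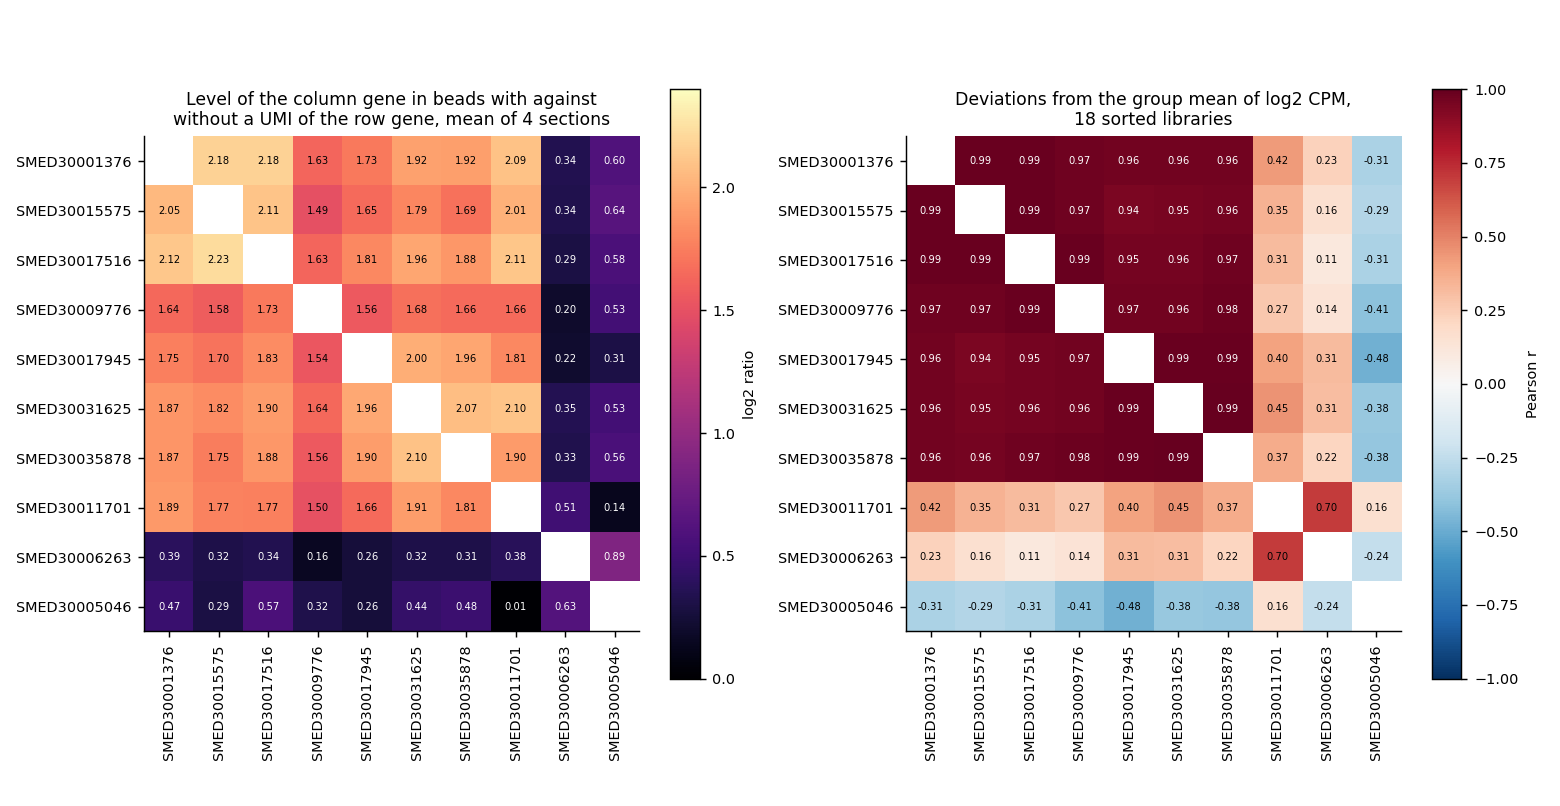
Left, mean log2 ratio over 4 sections of the column gene's level in beads with against without a UMI of the row gene. Right, Pearson r of deviations from the group mean of log2 CPM over 18 sorted libraries. The upper left block of 8 genes holds ratios of 1.49 to 2.23, and the block of 7 genes holds r of 0.94 to 0.99, while SMED30006263 and SMED30005046 fall outside both.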

How the data were processed

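The authors deposited raw read counts per gene identifier for the sorted cells and raw UMI counts per gene and bead for the sections, none normalized, with bead positions in an unstated unit. The submitters' processing notes name STAR 2.7.3a, RSEM and bcl2fastq 2.20; their roles, build and annotation were not given in the sources used here. Rows naming no gene, 20.4% to 22.2% of a library, were left out. The deposited libraries carry no strand, so overlapping genes cannot be separated, and near-identical genes are uncertain. Libraries of the same group differed beyond counting error, with a chi-square per gene of 12.4 to 114; pairs across groups were not compared.

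From these counts, CPM by column total (pseudocount 1) gave the members. Their choice, the lists and the tests were made with earlier results of these data known. The rule for naming genes gave all 10 members and the 3 just outside the limit; the closing observations name a further 2, picked after their values were seen. edgeR 4.0.16 in R 4.3.3 (filterByExpr, TMM, 18 libraries, 6 group means, quasi-likelihood test) tested 31435 genes; SE is the absolute log2 fold change divided by the square root of F. The test was checked on simulated data. Tissue beads had at least 50 UMIs and a mean over the 20 nearest positions above an Otsu limit on a log scale; 0.5 counts were added in ratios. Alternatives were other scaling, no filter, DESeq2 1.42.0, limma 3.58.1 with voom, a replicate block, 2 groups only, other bead limits and leaving out each library or section. Single-cell samples were not analysed here.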

Additional observations from a re-analysis of the deposited data

How the results depend on the processing

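The call of 1 member at 6 h against intact was the same in both populations under every alternative run. At 48 h against intact, the 2 members called in mmp-1- cells became 4 with DESeq2, 3 with limma and voom and 2 to 6 with 1 library left out, and the 3 in mmp-1+ cells became 5 with DESeq2, 4 with limma and voom, 5 with only the 2 groups compared and 2 to 5 with 1 library left out. At 48 h against 6 h, the 2 in mmp-1- cells became 3 with DESeq2, 3 with limma and voom, 1 with total counts, 1 with only the 2 groups compared and 0 to 3 with 1 library left out; the 1 in mmp-1+ cells became 0 with total counts, 0 with limma and voom, 2 with DESeq2, 2 with only the 2 groups compared and 0 to 1 with 1 library left out. The genes that gained calls with DESeq2, limma or the block were among SMED30031625, SMED30035878 and SMED30017945. The cause was not tested.

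With a replicate block, the counts were 5 and 4 in mmp-1- cells and 5 and 2 in mmp-1+ cells at 48 h against intact and against 6 h. Same-numbered libraries of different times correlated at -0.41 to 0.16, so the numbers were not taken to pair them. Within a time, same-numbered mmp-1+ and mmp-1- libraries correlated at -0.05 to 0.61. A change seen in both populations may therefore not be 2 independent results.

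Some uncalled log2 changes at 48 h against 6 h turned sign. SMED30006263 in mmp-1+ cells went to 0.035 with total counts. With 1 library left out, SMED30001376 was -0.15 to 0.21 in mmp-1+ and -0.12 to 0.31 in mmp-1- cells, and in mmp-1- cells SMED30015575 was -0.060 to 0.38 and SMED30005046 -0.17 to 0.39.

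In the sections, the median rim ratio was 0.56 to 0.78 over other settings and 0.58 to 0.94 with 1 section left out, and the median for 48 h against 6 h was -0.59 to 0.11 with 1 section left out. Beads with few UMIs limit SMED30005046 and SMED30011701 in the sections. Sorted libraries have no molecular identifiers, and 3 per group limit small changes. The sections are adjacent cuts of 1 block per time.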

Other observations

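Genes outside the 10 were also concentrated in the beads of the 8 members that share beads. Of 9231 genes ranked by their mean log2 ratio in those beads, the 8 members held ranks 3 to 33. SMED30005046 was at rank 676 and SMED30006263 at rank 1924. The 8 were picked because they share beads, so these ranks of members follow from that choice and are no support for it. SMED30003562 (ratio 2.00) and SMED30034772 (1.96), picked out after their values were seen, held ranks 1 and 2. From intact worms to 48 h, their sort differences d were -0.79, -1.02 and -0.87 for SMED30003562 and -0.63, -0.74 and -0.81 for SMED30034772, so the first missed the limit narrowly and in intact worms only. Of the genes just outside the limit, SMED30006180 was at rank 13 and SMED30013320 at rank 15, while SMED30019531 was at rank 805.

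The 50 genes outside the members with the highest ratios in these beads (1.30 to 2.00) had a median d of -0.44, -0.67 and -0.60 at the 3 times, beside -0.24, -0.35 and -0.30 over all ranked genes. Their d was below that median in 48, 50 and 50 of the 50. A d of -0.5 or less at every time was found in 15 of the 50, and in 280 of the 9231 ranked genes (3.03%). The list was chosen from the sections after the data had been seen and carries no test.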
